A study of Mus musculus with 35 samples.

Results

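The step from pH 7 to pH 6.6 in the absence of IL-2 was followed in 10 of the 35 RNA-seq libraries of the series. They were taken by their titles, 5 from CTLs held at pH 6.6 and 5 from CTLs held at pH 7, none of them with IL-2, and same-numbered libraries (n1 to n5) were treated as pairs. The cells of all 35 libraries were murine CD8+ T cells. According to the study's methods they came from spleens of OT-I mice, which carry a transgenic T cell receptor for an ovalbumin peptide. They had been primed with antibodies to CD3 and CD28 and expanded with IL-2 into effector cells, called cytotoxic T lymphocytes (CTLs). The cells of the pH 7 and pH 6.6 groups were thus already activated and IL-2-expanded when they were moved for 24 h into medium that had been acidified with hydrochloric acid and held no added IL-2. Dead cells were removed on Ficoll before RNA extraction, so each library describes the cells that were recovered. The other groups used here as a background, each of 5 libraries, were cells at 0 h, cells kept for 24 h at pH 7.4 without IL-2, and cells kept for 24 h at pH 7.4, pH 7 or pH 6.6 with 200 IU/mL IL-2. The ages of the mice, and whether 1 replicate number marks 1 animal, are not given in the sources used here, so the p-values measure the spread between these libraries.

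Tumors and inflamed tissue are often more acidic than blood, because cells with a high rate of glycolysis export lactate and protons. T cells sense protons through receptors such as GPR65 and move them with sodium-proton exchangers, bicarbonate carriers and lactate carriers. In activated CD8+ T cells IL-2 drives growth and division through the kinases JAK1 and JAK3, the transcription factor STAT5, mTORC1 and c-Myc, and when IL-2 is withdrawn the cells leave the cell cycle. The comparison asked what a fall of 0.4 pH units did to the transcriptome of cells that had already lost this cytokine.

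Values of single libraries are given for pH 7 first and for pH 6.6 second, each in the order n1 to n5. The defining markers of CD8+ T cells were abundant in the 10 libraries. Cd8a, a chain of the CD8 coreceptor, was at 1023, 956, 1015, 949 and 950.5 CPM (counts scaled to the total of each library on genes, after TMM normalization) in the pH 7 libraries n1 to n5 and at 815, 674, 744, 687 and 675 CPM in the pH 6.6 libraries n1 to n5. Summed over 10 such markers the level was 6492 to 7365 CPM at pH 7 and 6332 to 7739.6 CPM at pH 6.6. Of the markers of other blood cells, Cd79a of B cells and Csf1r and Lyz2 of myeloid cells were below the filter on low counts, as were Hbb-bs and Alas2 of red cells, and Cd4 was at 0.164 ± 0.331 CPM (mean ± SD, n = 5) at pH 7. The summed level of tested markers was 38.3 to 53.6 CPM at pH 7 and 28.1 to 46.8 CPM at pH 6.6 for 5 of 12 myeloid genes, 169 to 189.5 and 126 to 142 CPM for 3 of 6 NK cell genes, and 401 to 630.2 and 263 to 513 CPM for 3 of 9 B cell genes. The last sum was mostly Ighm, at 626, 543, 560.0, 399 and 439 CPM at pH 7 and 508, 344, 362, 264 and 259.9 CPM at pH 6.6. By the test described next, 5 of the 10 CD8 T cell markers were lower and 3 higher, beside 35.7% and 30.9% over all genes tested. Of 5 myeloid markers tested 3 were lower and 1 higher. Lower too were 3 of 3 NK cell markers and 1 of 3 B cell markers tested. The part of these markers in the results was not tested, and in bulk RNA fewer cells of a type cannot be told apart from less RNA per cell.

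Of 13819 genes tested, 9205 (66.6%) passed an adjusted p-value of 0.05 between pH 6.6 and pH 7, 4268 of them higher (30.9%) and 4937 lower (35.7%) at pH 6.6. These shares are the background against which the counts of each list are to be read, and for the same step with IL-2 they were 32.5% and 40.0%. The median log2 fold change over all genes tested was -0.04. Changes of at least 2-fold (an absolute log2 fold change of 1) were more often falls, with 807 genes higher and 1904 lower. For 6612 genes (47.8%) the 5 pH 6.6 libraries lay wholly above (3025 genes) or wholly below (3587 genes) the 5 pH 7 libraries. The first principal component of the 10 libraries took 67.7% of the variance and separated the pH values, and the second took 10.2%, with n1 of both groups at one end. The total count on genes was 22210451 to 34033340 per library at pH 7 and 22257963 to 33054825 at pH 6.6.

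**Figure D1:**
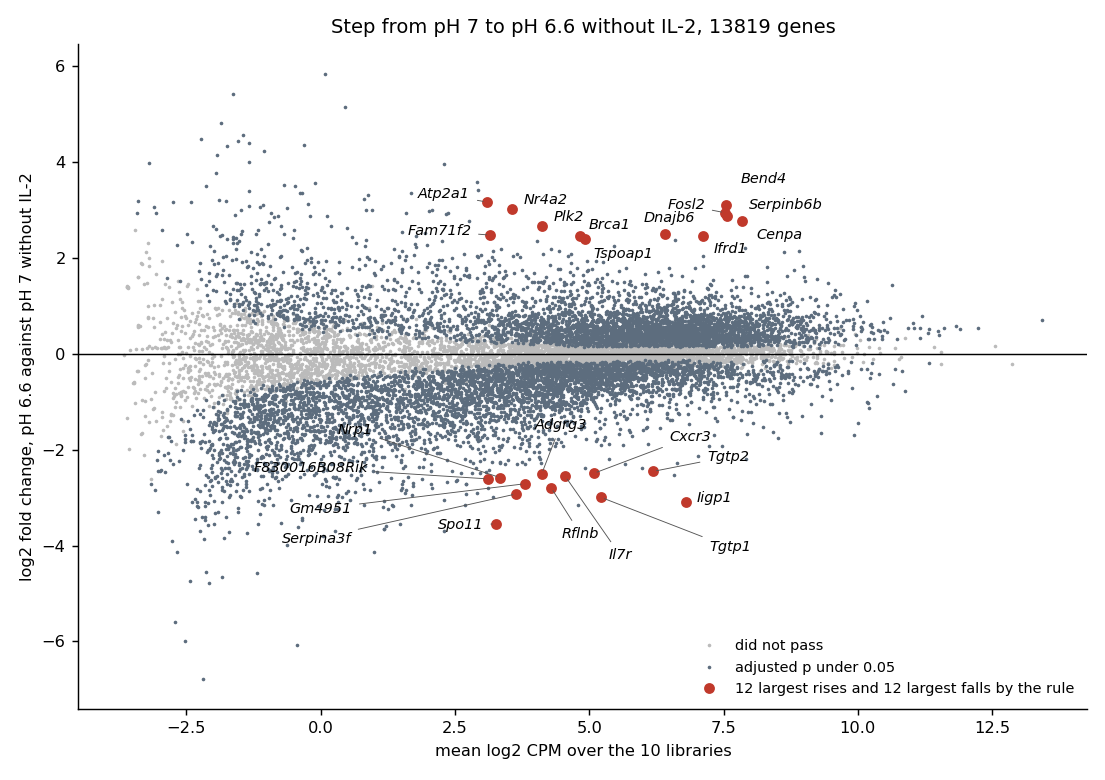
Each point is 1 gene. The horizontal axis is its mean log2 CPM over the 10 libraries and the vertical axis its log2 fold change at pH 6.6 against pH 7 without IL-2. Dark points passed an adjusted p of 0.05. Red points are the 12 largest rises and 12 largest falls among protein-coding genes of mean log2 CPM 3 or more, from 3.17 for Atp2a1 to -3.55 for Spo11.

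Genes of mitosis and of G2, the phase before it, rose at pH 6.6. Of 92 measured, 87 passed the test as higher and the other 5 did not pass, against 30.9% higher over all genes tested, and their median log2 fold change was 1.1. In the 5 pairs taken singly the median of the list was between 1.03 and 1.36. Many promoters of such genes hold a cell cycle homology region (CHR), a short element near the start through which the DREAM and MuvB complexes act. In RefSeq promoters (GRCm38.p6, 250 bases before to 50 after each start) the letters TTTGAA, on either strand, were in 66.3% of the 83 promoters found for 76 of these 92 genes and in 17.9% of all 32851 promoters. The 3 stretches below lie upstream of the start on the strand of the gene. Their genes run from a high fold change (Kif11) to one below the median of the list (Cdc20). Capitals mark the match nearest the start, written TTCAAA where it lies on the opposite strand.
Kif11, chr19:37376328-37376381, plus strand: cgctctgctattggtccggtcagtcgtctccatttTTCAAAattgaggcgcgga
Top2a, chr11:99024190-99024247, minus strand: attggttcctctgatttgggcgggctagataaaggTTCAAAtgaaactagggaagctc
Cdc20, chr4:118437344-118437396, minus strand: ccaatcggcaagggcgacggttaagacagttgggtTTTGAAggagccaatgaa

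Kif11, the kinesin that pushes spindle poles apart, was at 48.7, 58, 72, 24.2 and 26.5 CPM in the pH 7 libraries n1 to n5 and at 188, 308, 336, 158 and 176 CPM at pH 6.6 (log2 fold change 2.37 ± 0.19 (SE), adjusted p = 3.8e-12). All 5 libraries at pH 6.6 were above all 5 at pH 7, and n4 and n5 were the lowest of both groups. Cenpa, the histone H3 variant of centromeres, had the largest change of the list, from 82.2, 100.1, 108, 76.5 and 76.4 CPM to 528, 636, 654, 592 and 597 CPM (log2 fold change 2.77 ± 0.14 (SE), adjusted p = 7.3e-17). Again the groups did not overlap. Top2a, the topoisomerase that untangles sister chromatids, went from 172, 218, 252, 120.2 and 122 to 514, 835, 877, 421 and 485 CPM (log2 fold change 1.82 ± 0.13 (SE), adjusted p = 2.6e-13). Cdc20, which activates the ubiquitin ligase that ends metaphase, was at 16.8, 25.3, 27.9, 13.1 and 16.8 CPM at pH 7 and 32.7, 37.8, 44.3, 29.7 and 27 CPM at pH 6.6 (log2 fold change 0.79 ± 0.16 (SE), adjusted p = 6.4e-05), with overlapping groups but a rise in 5 of 5 pairs. Cdc20 and Top2a lie outside the rule for naming genes and were chosen after their values were seen.

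DNA replication genes followed in smaller measure. Among 89 measured, 70 were higher and 5 lower, against 30.9% and 35.7% over all genes tested, and the median log2 fold change was 0.67 (pairs 0.52 to 0.84). Rrm2, the small subunit of ribonucleotide reductase that supplies deoxynucleotides, was at 15.7, 19.8, 21.5, 11.2 and 8.72 CPM in n1 to n5 at pH 7 and at 45.1, 72.1, 76.8, 36.7 and 38.5 CPM at pH 6.6 (log2 fold change 1.8 ± 0.17 (SE), adjusted p = 1.2e-10). Brca1, a repair protein of homologous recombination, went from 11.5, 14.9, 17, 8.61 and 10.5 to 51.4, 94.7, 97.8, 48.3 and 55.1 CPM (log2 fold change 2.46 ± 0.12 (SE), adjusted p = 6.3e-17). In both genes each library at pH 6.6 exceeded each library at pH 7. Uhrf1, which carries DNA methylation through replication, had a log2 fold change of 2.14, with 84.6% of its 50-base windows found in no other gene, and Clspn, a mediator of the replication checkpoint, of 2.01. The falls of the list included Brca2 (-0.62) and Rnaseh2a (-0.34).

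Among cyclins, cyclin-dependent kinases (CDKs) and CDK inhibitors 10 of 18 were higher (30.9% over all genes tested) and 2 lower, with inhibitors among the rises. Cdkn1a, which encodes the CDK inhibitor p21, was at 99.99, 117, 101, 192 and 205 CPM in n1 to n5 at pH 7 and 249, 428, 407, 550.1 and 524 CPM at pH 6.6 (log2 fold change 1.62 ± 0.14 (SE), adjusted p = 1.8e-11). The groups did not overlap, and n4 and n5 were the highest in both. Cdkn2c, encoding the CDK4 and CDK6 inhibitor p18, had a log2 fold change of 0.87, Cdk2 one of 1.21 and the cyclin gene Ccnd2 one of -0.30 (adjusted p = 0.011), a call lost without replicate 4 (-0.26). Of 24 targets of the tumor suppressor p53, 16 were higher and 2 lower, against the same 30.9% and 35.7%, with a median log2 fold change of 0.70. Plk2, a polo-like kinase and p53 target, rose the most of these, from 4.49, 4.62, 4.88, 10.8 and 13.4 CPM to 26.8, 45.3, 39.6, 56.5 and 62.9 CPM (log2 fold change 2.67 ± 0.19 (SE), adjusted p = 1.2e-13), while Tigar, which lowers fructose-2,6-bisphosphate, and the nuclease gene Aen had log2 fold changes of -0.71 and -0.32.

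Genes that promote and genes that prevent apoptosis were both among the rises. In the list of BCL2 family members and death receptors 13 of 27 were higher (30.9% over all genes) and 4 lower (median 0.24). Bcl2l11, which encodes the pro-apoptotic protein BIM, went from 542, 522, 539, 514 and 534 CPM in n1 to n5 to 1248, 1390.5, 1426, 1026 and 1239 CPM (log2 fold change 1.24 ± 0.12 (SE), adjusted p = 2.5e-10). Those of the anti-apoptotic proteins BCL-XL (Bcl2l1) and cIAP1 (Birc2) had log2 fold changes of 1.45 and 1.51. Bcl2 itself was lower at pH 6.6 (-0.35), as was Bcl2l2 (-0.43).

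Most cell cycle genes moved in the other direction when IL-2 was present. With IL-2 the same step in pH lowered 85 of the 92 mitosis genes and 86 of the 89 replication genes, against 40.0% lower over all genes tested, with median log2 fold changes of -1.52 and -1.79. Cenpa was an exception, being higher at pH 6.6 with IL-2 too (log2 fold change 1.33, adjusted p = 1.4e-10). The difference between the steps without and with IL-2, tested directly, passed for 89 mitosis genes as higher and 2 as lower, and for 85 replication genes as higher, against 30.3% higher over all genes tested. The levels behind these changes were far apart at pH 7 and close at pH 6.6. Summed over the 92 mitosis genes the level was 3480.2 ± 790.3 CPM (mean ± SD, n = 5) at pH 7 without IL-2 and 16929 ± 1757 CPM with it, against 7275 ± 1468 CPM at pH 6.6 without IL-2 and 7552 ± 1138 CPM with it. The ranges at pH 6.6 overlapped, from 5858 to 9113 CPM without and from 6499 to 9263 CPM with IL-2. The replication genes summed to 2749 ± 100.4 and 13945 ± 525 CPM at pH 7 without and with IL-2, and to 4207 ± 507 and 5046 ± 413 CPM at pH 6.6. Cells at 0 h had sums of 5090 ± 517 CPM for mitosis genes and 5170 ± 541 CPM for replication genes. No test was run between the groups at pH 6.6 or against cells at 0 h.

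**Figure D2:**
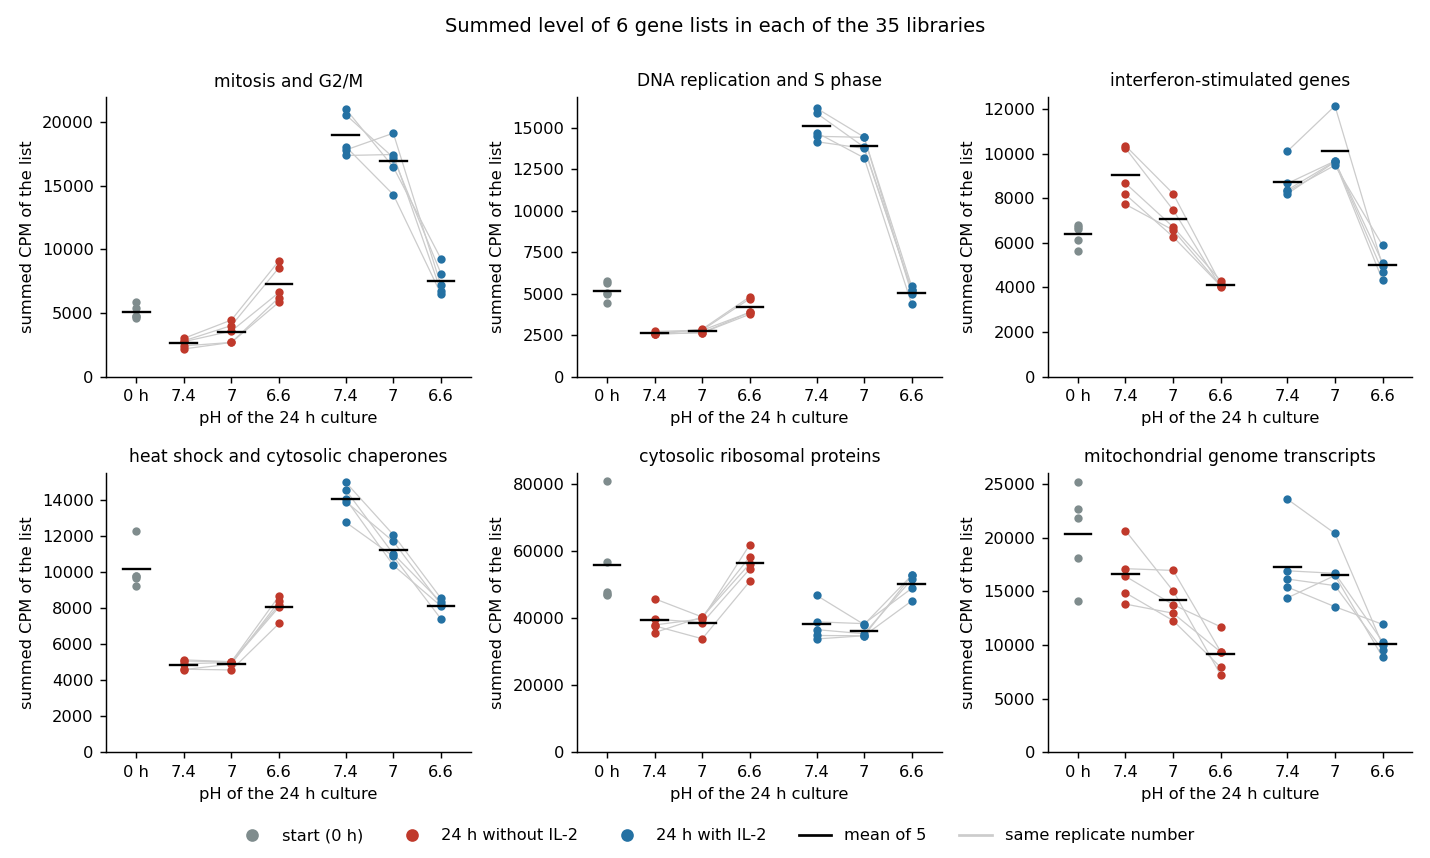
Each panel sums the CPM of the tested genes of 1 list in each library, with the pH of the 24 h culture on the horizontal axis, cells at 0 h in grey, cells without IL-2 in red and cells with IL-2 in blue. Bars are means of 5 libraries and grey lines join the same replicate number. For mitosis genes the means were 3480.2 and 16929 CPM at pH 7 without and with IL-2, and 7275 and 7552 CPM at pH 6.6.

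Interferon-stimulated genes fell as a group. These genes encode antiviral proteins and are switched on by interferons through JAK-STAT signaling. Of 51 measured, 43 were lower and 1 was higher at pH 6.6, against 35.7% lower over all genes tested, and the median log2 fold change was -1.15 (pairs -1.33 to -0.91). Interferon acts on their promoters at the interferon-stimulated response element (ISRE), searched here on both strands as the letters GAAA, 2 bases of any kind and GAAA again. Fewer than 80% of the list had a promoter in the RefSeq table, so the share of its promoters with these letters is void, and they were in 3.44% of all 32851 promoters. Shown are the stretches around the match of Ifit1 and Isg15, long known as interferon targets, and of the Schlafen gene Slfn5. They were taken because the fall without IL-2 was smaller than that with IL-2 for Isg15 and larger for Slfn5. Each match within the stretch is in capitals, read on the opposite strand for Ifit1, and the overlapping matches of Isg15 are joined.
Ifit1, chr19:34640769-34640848, plus strand: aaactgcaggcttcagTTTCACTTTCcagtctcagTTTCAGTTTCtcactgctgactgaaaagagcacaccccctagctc
Isg15, chr4:156200840-156200919, minus strand: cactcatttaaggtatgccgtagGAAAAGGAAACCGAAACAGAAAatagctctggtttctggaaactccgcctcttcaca
Slfn5, chr11:82951912-82951991, plus strand: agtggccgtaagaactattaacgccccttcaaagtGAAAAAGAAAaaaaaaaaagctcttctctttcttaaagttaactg

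Iigp1, a GTPase that attacks the vacuoles of intracellular parasites, was at 311, 383, 247, 552 and 213 CPM in n1 to n5 at pH 7 and at 49.6, 31.5, 38.6, 36.5 and 38.8 CPM at pH 6.6 (log2 fold change -3.1 ± 0.28 (SE), adjusted p = 1.7e-10). Its pH 7 libraries differed by more than 2-fold among themselves, and all of them were above the pH 6.6 libraries. Slfn5 went from 12.6, 14.1, 15.8, 13.9 and 14.8 to 2.15, 2.09, 2.77, 2.86 and 2.82 CPM (log2 fold change -2.5 ± 0.24 (SE), adjusted p = 1.4e-10). Ifit1, which binds foreign RNA, was low throughout, at 4.2, 4.59, 6.63, 7.05 and 4.01 CPM at pH 7 and 1.09, 0.719, 0.818, 0.368 and 1.13 CPM at pH 6.6 (log2 fold change -2.67 ± 0.30 (SE), adjusted p = 3.5e-09). Isg15, a ubiquitin-like protein, went from 1.22, 1.25, 1.97, 2.05 and 2.48 to 0.757, 0.751, 0.682, 0.90 and 0.892 CPM (log2 fold change -1.15 ± 0.24 (SE), adjusted p = 8.6e-05). The last 3 genes have a mean log2 CPM under 3 and were chosen after their values were seen. Rtp4 and Slfn1 had log2 fold changes of -2.2 and -1.93, and Gbp5, a guanylate-binding GTPase, was the gene that was higher (0.44).

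Ifngr2, a chain of the interferon gamma receptor, was higher (0.83). Ifng itself, the cytokine of activated CTLs, was scarce, at 1.89, 3.79, 1.6, 4.96 and 2.4 CPM in n1 to n5 at pH 7 and 0.421, 1.05, 0.454, 0.655 and 0.47 CPM at pH 6.6 (log2 fold change -2.19 ± 0.37 (SE), adjusted p = 7.3e-06), with all pH 6.6 libraries below all pH 7 libraries. With IL-2 the step lowered 46 of the 51 interferon-stimulated genes (40.0% over all genes), with a median of -0.98. The steps differed in 25 of the 51, against 61.0% over all genes tested. Of the 51, 15 fell less or rose more without IL-2 and 10 did the opposite (30.3% and 30.7% over all genes). Iigp1 had log2 fold changes of -3.1 without and -3.07 with IL-2, and the difference of -0.03 ± 0.37 (SE) did not pass (adjusted p = 0.95). With IL-2 Ifit1, Isg15 and Slfn5 had log2 fold changes of -3.62, -3.23 and -0.16. Without IL-2 the fall was larger for Slfn5 (log2 difference -2.34 ± 0.33 (SE), adjusted p = 3.7e-07) and smaller for Isg15 (log2 difference 2.08 ± 0.32 (SE), adjusted p = 1.5e-06). With IL-2 Isg15 was at 9.43 to 14.8 CPM at pH 7 and 0.760 to 1.44 CPM at pH 6.6. Its level was thus low at pH 6.6 in both conditions and, without IL-2, already at pH 7. Slfn5 with IL-2 was at 4.28 to 6.74 and 3.64 to 6.36 CPM.

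Of 19 genes for granzymes, perforin and other granule proteins, 7 were higher and 5 lower at pH 6.6 (median 0.07), beside 30.9% and 35.7% over all genes tested. Gzma, the granzyme that cleaves after lysine and arginine, was at 399, 435, 368, 524 and 389 CPM in n1 to n5 at pH 7 and at 1075, 1162, 1009, 1499 and 1131 CPM at pH 6.6 (log2 fold change 1.47 ± 0.12 (SE), adjusted p = 4e-12). Serpinb6b, a serine protease inhibitor, was at 57.6, 79.4, 78, 68.9 and 66 CPM and then 469.9, 553, 539.6, 490.4 and 519 CPM (log2 fold change 2.88 ± 0.16 (SE), adjusted p = 1.2e-15). In neither gene did the groups overlap. Serpinb9, which blocks granzyme B, had a log2 fold change of 1.8. Gzmb, the main caspase-cleaving granzyme, was at 60.5, 66.4, 36.7, 99.1 and 65.8 CPM and 81, 90.2, 74.4, 114 and 72.7 CPM (log2 fold change 0.44 ± 0.17 (SE), adjusted p = 0.02), higher in 5 of 5 pairs with overlapping groups. This call was lost without replicate 3 (log2 fold change 0.29), without the replicate block (0.40) and under the looser filter (0.44). Gzme (-0.86, lost without the replicate block at -0.81), Gzmk (-0.44) and the cathepsin gene Ctsw (-0.37) were lower.

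Effector cytokines and chemokines were lower in 13 of 19 tested genes and higher in 2 (median log2 fold change -0.65), against 35.7% and 30.9% over all genes tested. Spp1, which encodes osteopontin, had a log2 fold change of -1.92, Tnfsf11, the ligand of RANK, of -1.55, and Tnf of -0.75 (adjusted p = 0.0012). Tgfb1, an immunosuppressive cytokine, rose (0.83). Il2 was below the filter on low counts.

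Receptors and kinases of the IL-2 pathway moved in both directions. Il2ra, the alpha chain that gives the receptor its high affinity, was at 223, 181, 197, 167 and 141 CPM in n1 to n5 at pH 7 and at 302, 318, 328, 244 and 255 CPM at pH 6.6 (log2 fold change 0.67 ± 0.11 (SE), adjusted p = 1.5e-06), without overlap. Il2rb, the beta chain, was at 551, 772, 644, 721 and 835 CPM and 399, 455, 434, 485 and 498 CPM (log2 fold change -0.63 ± 0.10 (SE), adjusted p = 1.1e-06), also without overlap and in the other direction. The common gamma chain gene Il2rg had a log2 fold change of 0.19 (adjusted p = 0.029), with 72.5% of its windows unique. This call was lost without replicate 3 (0.14) or replicate 4 (0.16) and under the looser filter (0.19). Jak1, at 2588, 2799, 3042, 2586 and 2662 CPM and 2242, 2475, 2573, 2207 and 2457 CPM, was slightly lower (log2 fold change -0.19 ± 0.07 (SE), adjusted p = 0.0097). The call was lost with RLE normalization (-0.14), under the looser filter (-0.19) and without the replicate block (-0.19). Jak3 and Stat5b were higher, by 0.61 and 0.38 on the log2 scale. Stat5a did not pass at 0.16 (adjusted p = 0.1). It passed with RLE normalization, with DESeq2 (both 0.21) and in the fit of only the groups compared (0.17). Over the list of receptor, JAK-STAT5 and direct target genes, 15 of 27 were higher (30.9% over all genes tested) and 7 lower (35.7%). Socs2 (1.57) and Socs1 (-0.64), feedback inhibitors of this pathway, moved apart, and the survival kinase gene Pim1 had a log2 fold change of 1.33.

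Myc, the transcription factor that drives growth of T cells, was higher at pH 6.6 in each of the 5 pairs. Its level was 17.7, 12.5, 15.4, 13.5 and 17.2 CPM in n1 to n5 at pH 7 and 26, 28.2, 32.5, 20.8 and 23 CPM at pH 6.6 (log2 fold change 0.78 ± 0.12 (SE), adjusted p = 9.1e-07). With IL-2 it fell, from 123 ± 13.8 to 54.8 ± 10.4 CPM (mean ± SD, n = 5; log2 fold change -1.17 ± 0.11 (SE), adjusted p = 6.4e-11), and the steps differed by 1.95 ± 0.16 on the log2 scale (SE, adjusted p = 6.7e-12). Among 87 targets of MYC and genes of ribosome biogenesis 26 were higher and 30 lower without IL-2 (median -0.05), shares close to the 30.9% and 35.7% over all genes tested. With IL-2, 82 of the 87 were lower, against 40.0% over all genes. Odc1, the first enzyme of polyamine synthesis, Eif4e, which binds the mRNA cap, and Plk4, the kinase of centriole duplication, had log2 fold changes of 1.39, 1.0 and 1.94 without IL-2, and 75.7% of the windows of Odc1 were unique. Wdr12, of the assembly of the large ribosomal subunit, and the RNA polymerase I genes Polr1a and Polr1b were lower (-1.47, -0.92 and -0.85).

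Of the regulators of mTORC1 named in the study, Tsc2, an inhibitor of RHEB, was lower, at 86.2, 91.8, 84.1, 86.1 and 103 CPM in n1 to n5 and 73.1, 67.2, 68.1, 75 and 68.2 CPM (log2 fold change -0.36 ± 0.10 (SE), adjusted p = 0.0026). Rheb, the GTPase that activates mTORC1, had a log2 fold change of 0.44 (adjusted p = 0.00011) and Stk11, which encodes the kinase LKB1, of 0.69 (adjusted p = 4e-07). Akt1s1 (0.10, adjusted p = 0.46) and Nprl2 (-0.03, adjusted p = 0.83) did not pass.

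**Figure D3:**
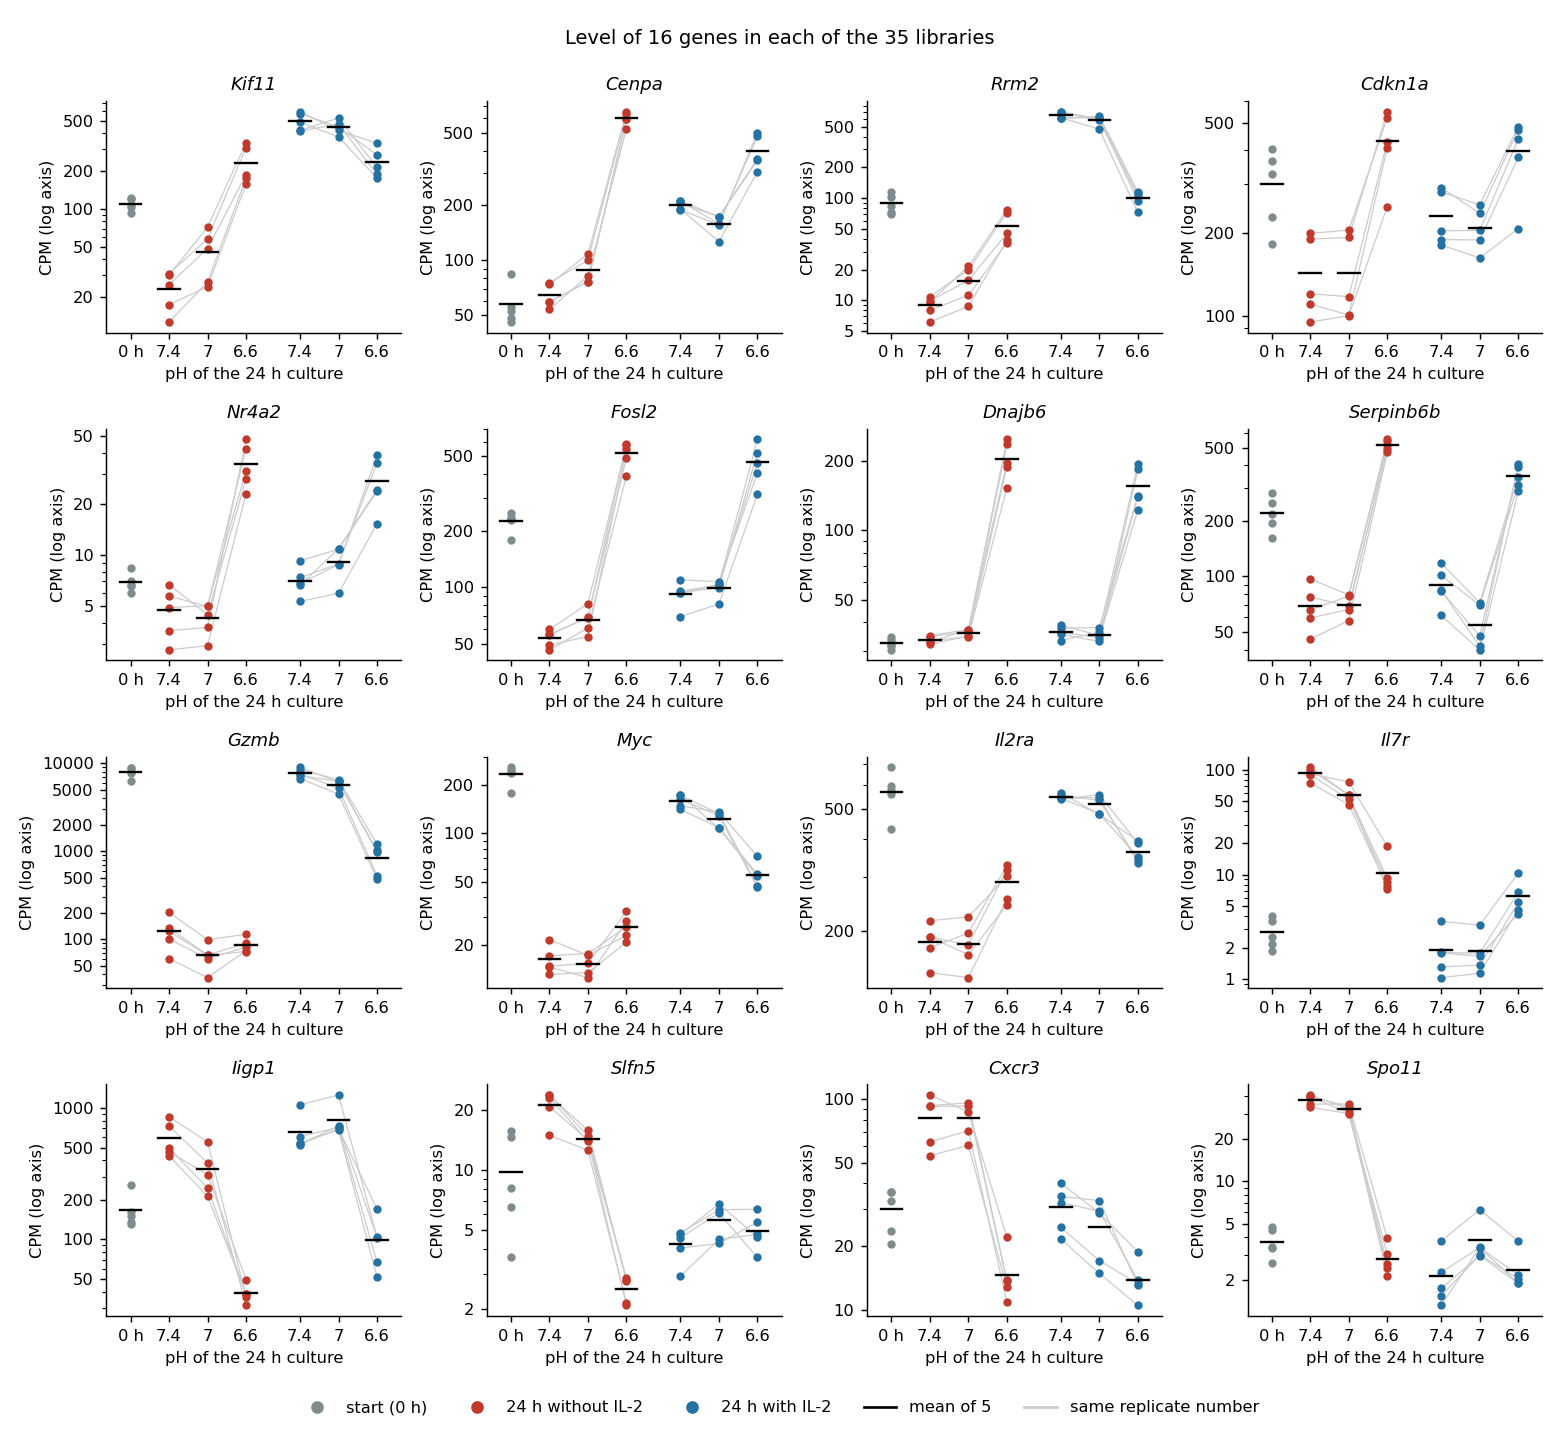
Each panel gives the CPM of 1 gene in each library on a log axis, by pH of the 24 h culture, with cells at 0 h in grey, cells without IL-2 in red and cells with IL-2 in blue. Bars are means of 5 libraries and grey lines join the same replicate number. Without IL-2 the pH 6.6 libraries lay wholly above or below the pH 7 libraries in every panel but that of Gzmb.

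The transcription factor genes Nr4a2 and Fosl2 were among the 12 largest rises. Nr4a2, an orphan nuclear receptor induced by calcium and cAMP, was at 2.94, 5.01, 3.76, 4.47 and 5.04 CPM in n1 to n5 at pH 7 and at 23, 42.2, 47.8, 28 and 31.4 CPM at pH 6.6 (log2 fold change 3.01 ± 0.17 (SE), adjusted p = 1.6e-15). Fosl2, an AP-1 subunit, went from 60.6, 68.5, 54.6, 69.2 and 81.8 to 395, 583, 547, 493 and 575 CPM (log2 fold change 2.94 ± 0.10 (SE), adjusted p = 6.7e-21). Bhlhe40, a repressor that is induced in activated T cells, was at 180.5, 225, 168, 289 and 306 CPM and 639, 1152, 971, 1201 and 1156 CPM (log2 fold change 2.14 ± 0.13 (SE), adjusted p = 4.7e-15). None of the 3 genes had overlapping groups. Nr4a3 (2.35), Nfkbiz (1.91) and Tnfaip3 (1.84), the last an inhibitor of NF-kappaB, were higher too. In the list of effector transcription factors, 15 of 23 were higher (30.9% over all genes tested) and 3 lower, and Irf4 (-1.03) and Id2 (-0.72) were among the latter.

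Egr1 went the other way. This zinc finger factor, induced within minutes of receptor signaling, was at 104, 83.1, 42.1, 206 and 256 CPM and 21.5, 16.8, 21.9, 130.4 and 101 CPM (log2 fold change -1.36 ± 0.55 (SE), adjusted p = 0.032). It was lower in 5 of 5 pairs, but the groups overlapped and n4 and n5 were the highest of both. The call was lost without replicate 1 (log2 fold change -1.18), without replicate 2 (-1.21), without the replicate block (-1.24) and under the looser filter (-1.36). Over the list of immediate early AP-1 and EGR factors, 11 of 26 were higher and 5 lower, beside 30.9% and 35.7% over all genes tested. The other falls were Jund (-0.46, lost without replicate 2 at -0.40) and, each with a mean log2 CPM under 3 and chosen after its values were seen, Egr3 (-2.71), Fosb (-1.78) and Egr2 (-1.75).

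Targets of cAMP and CREB were higher in 16 of 29 cases (30.9% over all genes tested) and lower in 7 (median 0.41). The cAMP response element (CRE) is written TGACGTCA. It was in 1.79% of all promoters, and as fewer than 80% of this list had a promoter in the table its share there is void. The stretch around the match in the promoter of Dusp1 is shown because Dusp1, a phosphatase that turns off MAP kinases, was among the rises of the list.
Dusp1, chr17:26508573-26508650, minus strand: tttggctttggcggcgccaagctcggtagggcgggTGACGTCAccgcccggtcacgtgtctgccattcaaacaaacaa

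Dusp1 was at 11.3, 11, 10.7, 23.1 and 28.8 CPM in n1 to n5 at pH 7 and 24.2, 37.6, 42.7, 62.6 and 66.6 CPM at pH 6.6 (log2 fold change 1.49 ± 0.19 (SE), adjusted p = 8.2e-08). It rose in each pair by more than 2-fold, while the groups overlapped, with n4 and n5 high in both. Dusp16 and Dusp5 had log2 fold changes of 2.14 and 0.79, the latter lost without the replicate block (0.73). Crem, a cAMP-responsive modulator of transcription chosen after its values were seen, went from 34.8, 37.5, 41.6, 39.3 and 31.5 to 109, 134, 138, 91.4 and 114 CPM (log2 fold change 1.66 ± 0.12 (SE), adjusted p = 2.2e-13). The paper reports no accumulation of CREM protein under acidic conditions, and protein is not the same measure as the mRNA given here. Sik1, a kinase that restrains CREB coactivators, had a log2 fold change of 1.73. The phosphodiesterase genes Pde4a and Pde7a, whose products degrade cAMP, were lower (-1.13 and -0.44). In the list of MAP kinase phosphatases, Sprouty and RGS genes 9 of 21 were higher and 7 lower, near the shares over all genes, among the latter Rgs10 (-0.99).

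Chaperones of the cytosol rose, 27 of 35 being higher and 2 lower (median log2 fold change 0.46), against 30.9% and 35.7% over all genes tested. Heat shock factor 1 binds heat shock elements, searched here on both strands as GAA, TTC and GAA with 2 bases of any kind between neighbours. These letters were in 18.9% of the 37 promoters found for 28 of the 35 genes and in 0.603% of all promoters. The match in the promoter of Dnajb6, a cochaperone that keeps proteins from aggregating, is given because this gene had the largest change of the list above a mean log2 CPM of 3.
Dnajb6, chr5:29735817-29735897, plus strand: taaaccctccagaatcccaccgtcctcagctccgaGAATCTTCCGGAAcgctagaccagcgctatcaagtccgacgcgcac

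Dnajb6 was at 34.6, 36.5, 37.2, 34.9 and 37.2 CPM in n1 to n5 at pH 7 and 153, 236, 248, 189 and 196 CPM at pH 6.6 (log2 fold change 2.49 ± 0.09 (SE), adjusted p = 1e-19), and 82.3% of its windows were unique. Hsp90ab1, the constitutive HSP90, went from 869, 1034, 978, 959.8 and 1038 to 2211, 2856, 2742, 2726 and 2590.4 CPM (log2 fold change 1.43 ± 0.06 (SE), adjusted p = 2.2e-18). Neither gene had overlapping groups. Hspa1b, an inducible HSP70 gene chosen after its values were seen, was near 0 at pH 7, at 0.294, 0.221, 0.149, 0.123 and 0.207 CPM, and at 8.08, 8.46, 7.18, 5.73 and 5.31 CPM at pH 6.6 (log2 fold change 5.14 ± 0.66 (SE), adjusted p = 9.3e-08). It has a near-identical neighbour, Hspa1a (5.83), and reads that fitted both were left out of the counts, so both levels are uncertain. The falls were Ahsa1, a cochaperone of HSP90 (-0.34), and Fkbp5 (-0.22). With IL-2 the step lowered 22 of the 35 chaperone genes (40.0% over all genes) and raised 6, and the steps differed, as higher without IL-2, in 27 (30.3%).

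Of 35 chaperones and stress genes of the endoplasmic reticulum 26 were higher (30.9% over all genes tested) and 3 lower without IL-2 (median 0.36), and with IL-2 22 were lower (40.0%) and 7 higher. Hspa5, which encodes BiP, had a log2 fold change of 1.27, Hsp90b1, the HSP90 of this compartment, of 1.14, and Edem2, a mannosidase of protein disposal, of -0.55. Among targets of ATF4 and the integrated stress response 16 of 30 were higher (30.9% over all genes) and 4 lower. Ppp1r15a, which restores translation after stress, rose by 1.22 on the log2 scale and Slc3a2, the heavy chain of amino acid exchangers, by 1.55. The serine synthesis gene Psph (-0.72), the pseudokinase gene Trib3 (-0.52) and Shmt2 of one-carbon metabolism (-0.39) were lower. The call of Trib3 was lost without replicate 2 (-0.48) and under the looser filter (-0.52). Autophagy genes were higher in 20 of 38 cases and lower in 4, with Ulk1, the kinase that starts autophagy, at 1.28 and Vmp1, a membrane protein of autophagosome formation, at -1.13. Of 36 proteasome subunits 23 were higher and 2 lower, the latter Psmb10, of the immunoproteasome (-0.30), and Psmd6 (-0.31). The call of Psmb10 was lost with RLE normalization, with DESeq2, under the looser filter and without replicate 2 or 5 (-0.30 to -0.24).

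More genes of homing and memory fell than rose without IL-2, and more rose than fell with it. Of 28 genes, 15 were lower and 5 higher at pH 6.6 without IL-2 (median -0.30), beside 35.7% and 30.9% over all genes tested. With IL-2, 8 were lower and 20 higher (median 0.88), beside 40.0% and 32.5% over all genes. The difference passed as lower without IL-2 in 20 of the 28 (30.7% over all genes). Il7r, the receptor chain of the survival cytokine IL-7, was at 76.2, 56.9, 57.5, 52 and 46.4 CPM in n1 to n5 at pH 7 and 18.6, 9.18, 7.22, 8.51 and 7.7 CPM at pH 6.6 (log2 fold change -2.55 ± 0.15 (SE), adjusted p = 3.7e-15). With IL-2 it rose from 1.85 ± 0.848 to 6.28 ± 2.47 CPM (mean ± SD, n = 5; log2 fold change 1.76 ± 0.19 (SE), adjusted p = 7.9e-10). Slamf6, a marker of stem-like T cells, had a log2 fold change of -1.53. Ccr7, the chemokine receptor for entry into lymph nodes (0.99), Zeb1 (1.44) and Foxo3 (0.56) were higher.

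Most adhesion and migration receptors fell, 19 of 25 being lower and 4 higher, against 35.7% and 30.9% over all genes tested. Their median log2 fold change was -0.73, or -0.46 under the stricter filter, which tests fewer of them. Cxcr3, the receptor for interferon-induced chemokines, was at 87.1, 96.2, 92.8, 60.4 and 70.9 CPM in n1 to n5 at pH 7 and at 22.2, 13.8, 13.6, 12.8 and 10.9 CPM at pH 6.6 (log2 fold change -2.49 ± 0.12 (SE), adjusted p = 1.1e-17). Itgae, the integrin chain CD103 that binds epithelium, was at 581, 246, 208, 248 and 191 CPM and 259, 82.9, 75.3, 103 and 66.9 CPM (log2 fold change -1.4 ± 0.13 (SE), adjusted p = 1.1e-10). It fell in 5 of 5 pairs, and the groups overlapped, with n1 far above the other libraries in both. Itgax had a log2 fold change of -1.41. Cxcr4, the receptor of the chemokine CXCL12 (1.47), and Itgb3 (0.79) were higher.

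Counts for inhibitory and costimulatory receptors and for the T cell receptor complex were near the 30.9% higher and 35.7% lower over all genes tested. Among 19 inhibitory receptors 8 were higher, with Tigit (1.15), Nt5e, which encodes the adenosine-producing enzyme CD73 (1.09), and Pdcd1, which encodes PD-1 (0.77), and 7 were lower, with Cd160 (-1.78) and Vsir (-0.79). Of 17 costimulatory receptors 5 were higher and 7 lower. Those of the TNF receptor family, Tnfrsf9 (1.2) and Tnfrsf4 (0.83), were higher, while Tnfrsf14 (-1.0) and, outside this family, Cd48 (-0.94) were lower. In the T cell receptor complex, 12 of 33 genes were higher and 12 lower. Cd3g (-0.52), Cd3d (-0.36) and Cd8b1 (-0.67) fell while Cd3e rose (0.45), as did Bcl10 (0.88) and Malt1 (0.84), which link the receptor to NF-kappaB.

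Of 6 proton sensors tested 4 were higher and 1 lower, beside 30.9% and 35.7% over all genes tested. The fall had a log2 fold change of -0.84. Summed over the 6 the level was 668 to 779 CPM at pH 7 and 640 to 699 CPM at pH 6.6. Gpr132, a G protein-coupled receptor related to Gpr65, was at 287, 337, 355, 315 and 329 CPM in n1 to n5 at pH 7 and at 369.8, 414, 451, 409 and 423 CPM at pH 6.6 (log2 fold change 0.35 ± 0.08 (SE), adjusted p = 0.00033), without overlap. With IL-2 it had a log2 fold change of 1.76 (adjusted p = 3.9e-18), and the steps differed (log2 difference -1.41 ± 0.11 (SE), adjusted p = 2.9e-12). Also higher were the acid-sensitive potassium channel gene Kcnk5 (0.47) and Tmem206, which encodes a proton-activated chloride channel (0.28, lost without replicate 3 at 0.19). Gpr65 did not pass (-0.18, adjusted p = 0.088), though it did without replicate 5 (-0.26). Asic3, an acid-sensing ion channel gene with a mean of 0.554 ± 0.137 CPM at pH 7, had a log2 fold change of 1.58. Of 23 carriers of acid, base and lactate 9 were lower, near the 35.7% over all genes tested, and 4 higher. Slc16a1, the lactate carrier MCT1 (-1.04), the sodium-proton exchanger gene Slc9a8 (-0.79) and the proton channel gene Hvcn1 (-0.75, with 44.2% of its exons shared with the other strand) were among the former, and Slc4a11 (0.62) among the latter.

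Of 24 genes of cholesterol synthesis and uptake 14 were higher (30.9% over all genes tested) and 5 lower, with a median log2 fold change of 0.55. Insig1, a brake on sterol synthesis that is itself induced by SREBP, was at 10.4, 11.3, 9.8, 12.5 and 15.3 CPM in n1 to n5 at pH 7 and 20.4, 34.1, 37, 29.3 and 34.7 CPM at pH 6.6 (log2 fold change 1.37 ± 0.19 (SE), adjusted p = 2.3e-07). The groups did not overlap, and n1 at pH 6.6 was below the other pH 6.6 libraries. Hmgcs1, HMG-CoA synthase, had a log2 fold change of 1.06, while Mvk, mevalonate kinase, was at -0.73. With IL-2 the step lowered 23 of the 24 (40.0% over all genes). In fatty acid synthesis 5 of 18 were higher, with Acsl4 (0.95), and 5 lower, with Elovl6 (-0.65).

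Ribosomal protein genes rose, 66 of 78 being higher and 1 lower (median log2 fold change 0.54, pairs 0.50 to 0.61), against 30.9% and 35.7% over all genes tested. Rps2, of the small subunit, was at 244, 340.1, 302, 318 and 296 CPM in n1 to n5 at pH 7 and 586, 614, 585, 732 and 537 CPM at pH 6.6 (log2 fold change 1.03 ± 0.12 (SE), adjusted p = 6.1e-09), but only 57% of its windows were unique. Ribosomal protein genes have many processed copies, and reads with several alignments were left out of the counts. Such reads made up 36.7% to 39.5% of all reads at pH 6.6 and 32.8% to 35.2% at pH 7, without overlap between the groups, and their part in this result was not tested. The step with IL-2 raised 49 of the 78 (32.5% over all genes) and lowered 11.

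Nuclear and mitochondrial genes of the respiratory chain moved apart. Of 75 nuclear-encoded subunits 46 were higher (30.9% over all genes tested) and the rest did not pass, with a median log2 fold change of 0.29 and Cox8a (0.78), Atp5d (0.75) and Sdhd (0.74) at the top. Of 7 mitochondrial transcripts that could be tested 5 were lower (35.7% over all genes tested), with a median of -1.45. mt-Cytb, cytochrome b of complex III, was at 1905, 1757, 1679.8, 1928 and 1575 CPM in n1 to n5 at pH 7 and at 492, 683, 562, 506 and 482 CPM at pH 6.6 (log2 fold change -1.7 ± 0.12 (SE), adjusted p = 1.2e-13). The groups did not overlap for any of these 5. The other 6 of 13 mitochondrial genes were below the filter. With IL-2, mt-Cytb had a log2 fold change of -1.52 (adjusted p of the difference = 0.36). In that step 50 of the 75 nuclear subunits were lower and 3 higher, against 40.0% and 32.5% over all genes tested.

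Counts for glycolysis, glutamine metabolism, lysosomes and redox defense were near the 30.9% higher and 35.7% lower over all genes tested. In glycolysis and hexose uptake 7 of 25 genes were higher and 8 lower. Slc2a1, the glucose transporter GLUT1 (-1.05), and the pyruvate dehydrogenase kinase genes Pdk2 (-0.95) and Pdk3 (-0.81) were lower, and Aldoa, aldolase (0.91), was higher. Pgk1 (1.12) and Eno1 (0.52) were also higher, with 46.1% and 74% of windows unique. Hif1a, the oxygen-sensing transcription factor, had a log2 fold change of 1.14. For glutamine, glutamate, aspartate and proline 7 of 23 genes were higher and 6 lower. Oat, which links ornithine to proline (0.54), and the glutamine transporter gene Slc38a2 (0.93) were higher, and Slc1a5 (-0.41) and Slc25a22 (-0.62) lower. Aldh18a1, which makes the precursor of proline from glutamate, was at -0.20 (adjusted p = 0.017). The call was lost with RLE normalization and with DESeq2 (both -0.15), under the looser filter (-0.20) and without replicate 2 (-0.19). Lysosome and V-ATPase genes were lower in 22 and higher in 15 of 56 cases, with the heparan sulfate-degrading enzyme gene Sgsh at -1.19 and Tfeb, the master factor of lysosome genes, at 0.79. Txnip, which restrains glucose uptake, did not pass (0.15, adjusted p = 0.13). It passed with RLE normalization, with DESeq2 and in the fit of only the groups compared (0.16 to 0.20). With IL-2 it rose by 1.62 on the log2 scale. Among redox genes 12 of 34 were higher and 13 lower, and Gclm, a subunit of the enzyme that starts glutathione synthesis, was at -1.14.

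**Figure D4:**
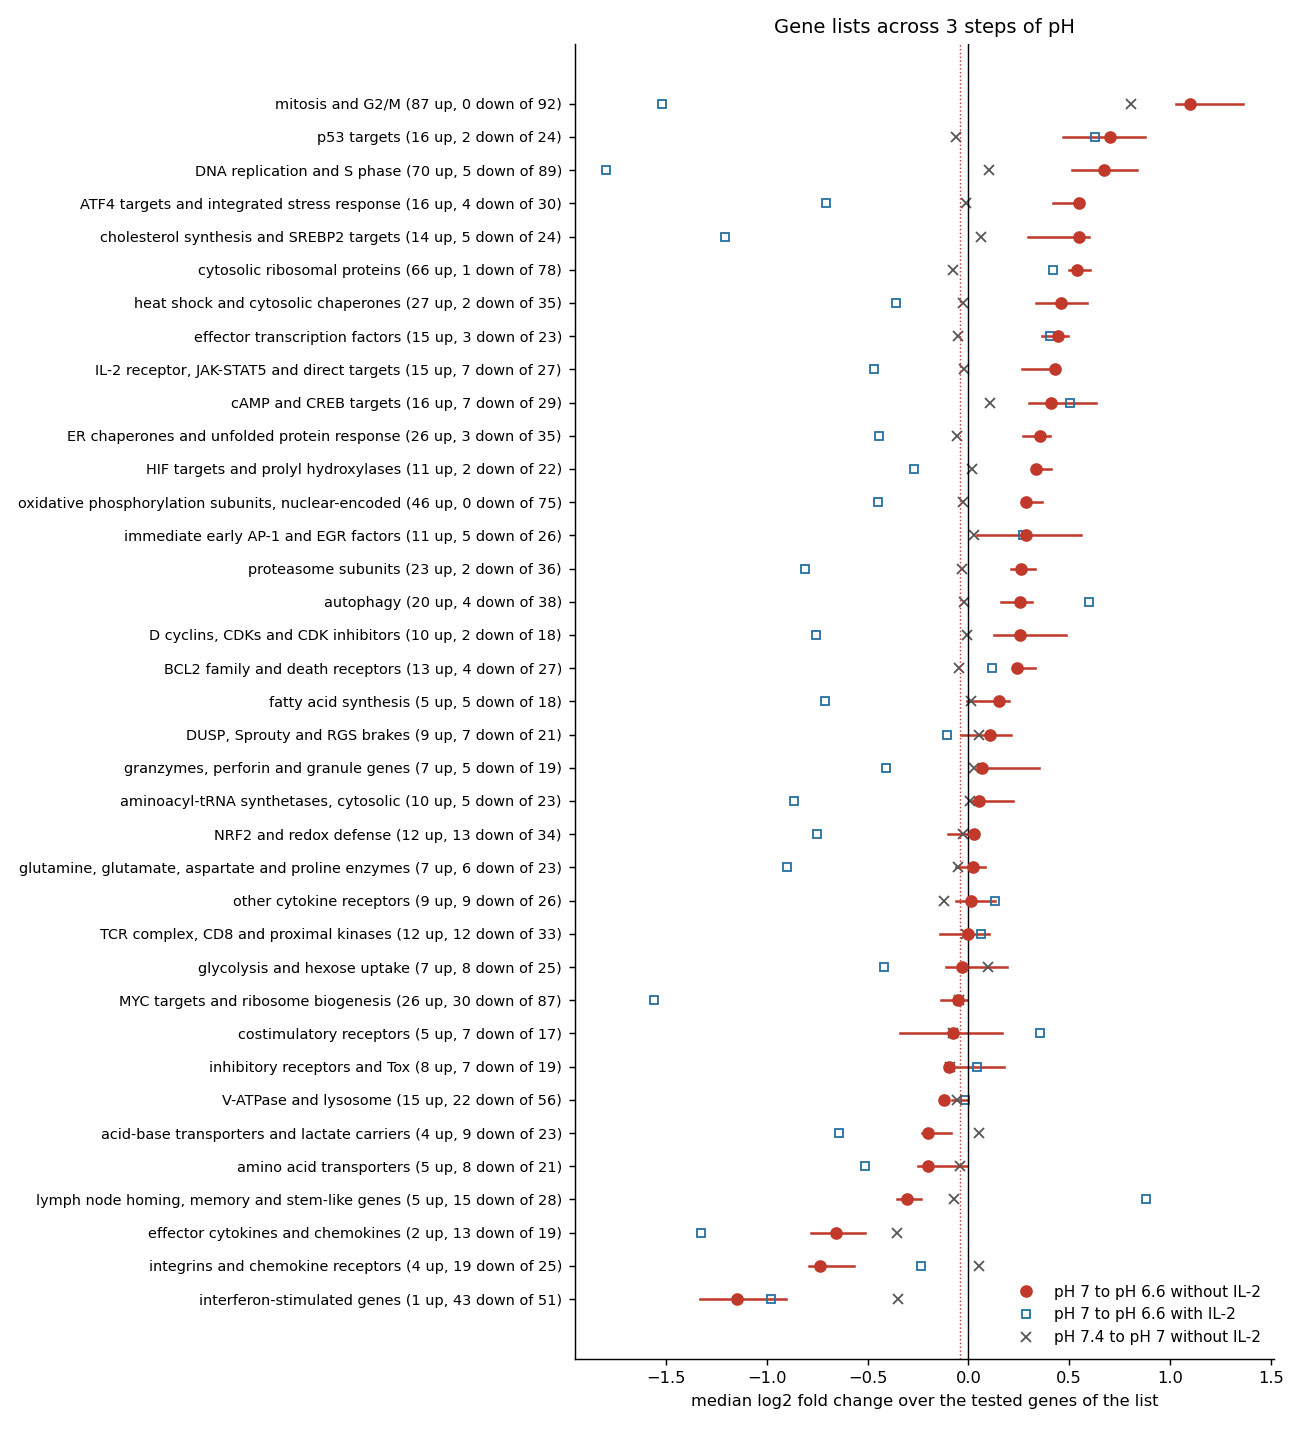
For each list with 15 or more tested genes the filled circle is the median log2 fold change at pH 6.6 against pH 7 without IL-2, and the line runs from the lowest to the highest median among the 5 pairs. Open squares are the same step with IL-2 and crosses the step from pH 7.4 to pH 7 without IL-2, and the dotted line is the median of all genes tested (-0.04). The counts are genes that passed in each direction, and mitosis genes are at the top with 1.1 and interferon-stimulated genes at the bottom with -1.15.

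Several of the largest changes belonged to no list. Bend4 (ENSMUSG00000092060), a BEN domain gene at chr5:67392147-67428310 on the minus strand (GRCm38, whole gene), was at 86, 66, 68, 46.6 and 57.6 CPM in n1 to n5 at pH 7 and 559, 635, 649, 391 and 577 CPM at pH 6.6 (log2 fold change 3.11 ± 0.14 (SE), adjusted p = 2.4e-18). Atp2a1, the calcium pump of skeletal muscle sarcoplasmic reticulum (ENSMUSG00000030730, chr7:126445858-126463108, minus strand), was at 2.6, 3.21, 2.68, 2.17 and 3.43 CPM and 29.6, 21.7, 23.6, 24.9 and 28.1 CPM (log2 fold change 3.17 ± 0.18 (SE), adjusted p = 7.6e-16). Spo11, the enzyme that breaks DNA in meiosis (ENSMUSG00000005883, chr2:172977700-172993576), showed the largest fall among protein-coding genes of mean log2 CPM 3 or more, from 35.2, 32.4, 33.7, 30.4 and 30.1 to 3.96, 2.12, 2.59, 2.41 and 3.05 CPM (log2 fold change -3.55 ± 0.16 (SE), adjusted p = 1.1e-17). In all 3 genes the groups did not overlap. Atp2a1 overlaps a gene on the other strand over 21.9% of its exons, and the strand setting of the counting is not given in the sources used here. The remaining rises of the 12 largest were Fam71f2 (2.48), Ifrd1 (2.45) and Tspoap1 (2.41), and the remaining falls Serpina3f (-2.92), Rflnb (-2.79), Gm4951 (-2.71), F830016B08Rik (-2.61), Nrp1, the coreceptor neuropilin 1 (-2.58), and Adgrg3 (-2.5). Tgtp1 (-2.99) and Tgtp2 (-2.45), which encode T cell GTPases, had 18.8% and 13.4% of their 50-base windows in no other gene, so their levels are uncertain.

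How far the step depended on IL-2 was tested gene by gene over the 20 libraries concerned, within the model of all 35. The step with IL-2 changed 10009 genes (72.4%), and the difference between the steps passed for 8433 genes (61.0%), 4186 of them higher without IL-2 (30.3%) and 4247 lower (30.7%). Among genes of mean log2 CPM 3 or more the largest positive differences were those of Uhrf1, of DNA replication (4.65), Pclaf, a partner of the replication clamp PCNA (4.6), Rrm2 (4.34), the kinetochore gene Kntc1 (4.2) and Fignl1 (4.07), all on the log2 scale. Heatr9 (-4.44), Il7r (-4.32), Gm5538 (-4.09), A930024E05Rik (-3.98) and the anion transporter gene Slc26a11 (-3.8) had the largest negative differences on the same condition. Gzmb fell with IL-2 from 5692 ± 846 to 845 ± 323 CPM (log2 fold change -2.8 ± 0.18 (SE), adjusted p = 2.7e-15) and stayed between 36.7 and 114 CPM in the 10 libraries without it at pH 7 and pH 6.6. For other genes the difference did not pass. Plk2 had log2 fold changes of 2.67 without and 2.71 with IL-2, with a difference of -0.04 ± 0.26 (SE, adjusted p = 0.9), and Serpinb6b 2.88 and 2.71, with a difference of 0.17 ± 0.21 (SE, adjusted p = 0.5).

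**Figure D5:**
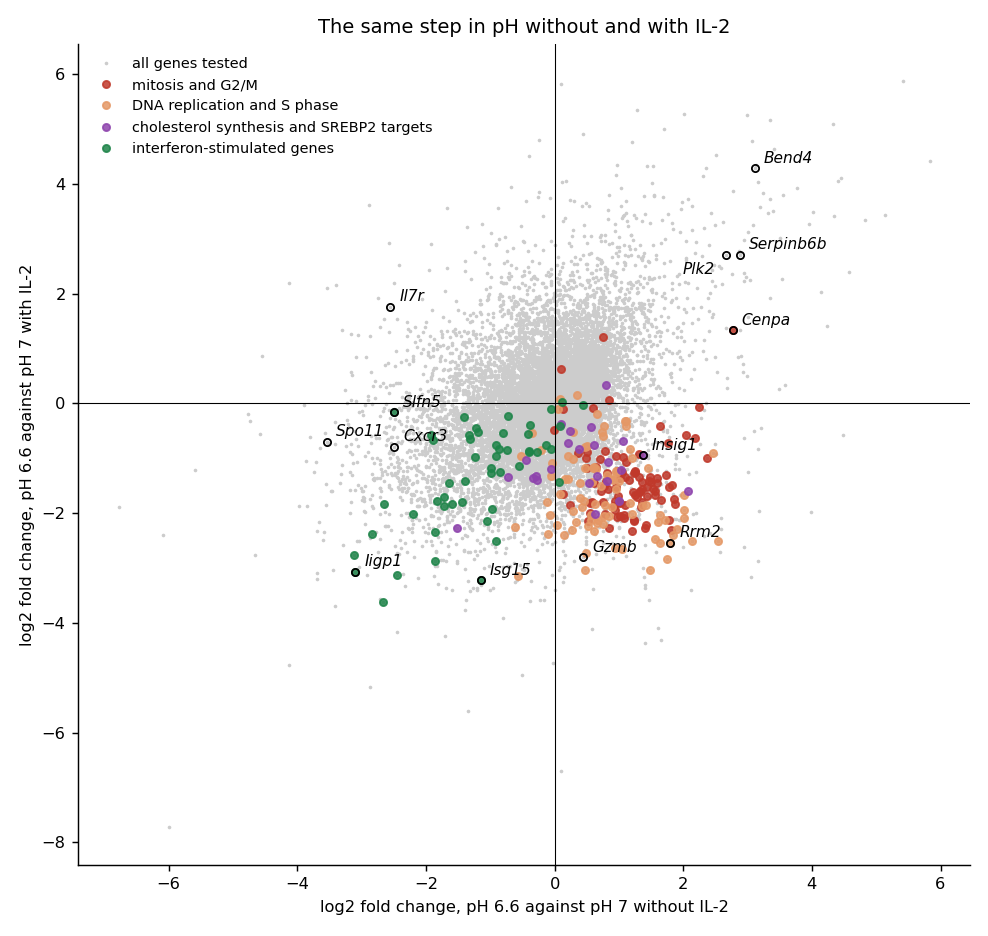
Each point is 1 gene, with its log2 fold change at pH 6.6 against pH 7 without IL-2 on the horizontal axis and with IL-2 on the vertical axis. Most mitosis and replication genes lie at the lower right, higher without and lower with IL-2, while Cenpa is at 2.77 and 1.33, and interferon-stimulated genes lie mostly at the lower left. Il7r is at -2.55 and 1.76, and Bend4 at 3.11 and 4.28.

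Far fewer genes changed in the milder step without IL-2. The step from pH 7.4 to pH 7, which shares the pH 7 libraries with the step described here, changed 232 genes (1.68%), 188 higher (1.36%) and 44 lower (0.318%). The 2 steps differed in 6111 genes (44.2%), 2601 of them higher in the second (18.8%) and 3510 lower (25.4%). Of the 92 mitosis genes 60 had already risen at pH 7, with a median log2 fold change of 0.81 in the first step and 1.1 in the second. Kif11 had 0.95 and 2.37, while replication genes had medians of 0.10 and 0.67. Of the 188 genes that rose to pH 7, 113 rose again and 49 fell at pH 6.6, beside 30.9% and 35.7% over all genes tested. Of the 44 that fell to pH 7, 38 fell again (35.7% over all genes). Among those that turned downward, Vipr2, a receptor of vasoactive intestinal peptide, was at 19.7 ± 10.6, 35.5 ± 5.8 and 8.14 ± 1.97 CPM (mean ± SD, n = 5) at pH 7.4, pH 7 and pH 6.6, and P2rx7, a receptor of extracellular ATP, at 1.64 ± 1.28, 3.64 ± 1.85 and 0.783 ± 0.581 CPM. The values at pH 7 enter both steps, so a high or low pH 7 library moves them in opposite directions. Tmem273, the noncoding gene Gm12503 and the pseudogene Gm12504 also rose and then fell, with log2 fold changes of 1.15, 0.83 and 0.77 at the first step and -2.04, -2.99 and -2.8 at the second. Cd74, the invariant chain of MHC class II, and Gzmb were the 2 genes that fell to pH 7 and then rose, and both second steps were near the threshold (adjusted p = 0.03 and 0.02), with the call for Cd74 lost without the replicate block (0.58) and without replicates 2, 3 or 5.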

How the data were processed

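CTLs of the groups described below were lysed after 24 h, and stranded libraries of polyadenylated RNA were sequenced as single reads. The deposited tables hold raw counts of reads per gene, made by the authors without normalization. The submitters' processing notes name cutadapt 1.8, STAR 2.5.2b, HTSeq 0.6.1 and GRCm38, and the annotation and strand setting are not given in the sources used here. The 5 summary rows of each table entered neither library sizes nor tests. In each of the 10 libraries compared, multi-aligned reads made up 32.8% to 39.5%, reads outside genes 6.47% to 11.1% and ambiguous reads 0.871% to 0.994% of all reads in the table.

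In R 4.3.3, edgeR 4.0.16 kept 13819 genes (filterByExpr over the 7 groups, minimum count 10) and fitted 1 robust quasi-likelihood model with TMM normalization to the whole set of 35 libraries. The model held the groups and, as a block, the replicate number. The common biological coefficient of variation was 0.120. Contrasts gave the step from pH 7 to pH 6.6 without and with IL-2, the step from pH 7.4 to pH 7 without IL-2, and the differences between steps. Benjamini-Hochberg adjusted p-values under 0.05 were called, and errors of log2 fold changes are SE from the F statistic. The study's methods use paired tests. Same-numbered libraries deviated together from their group means in 5 of 5 pairs (r 0.283 to 0.553, against a median of -0.141 over 20 pairs with different numbers). No 2 libraries of a group agreed within sampling noise (lowest chi-square per degree of freedom 8.35).

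The comparison, the 41 gene lists and 6 marker lists, written from general knowledge, and the naming rule were chosen with earlier results of these data known, and 7 list members matched no symbol. Symbols and coordinates come from GENCODE M21 (GRCm38), which matched 48349 of 48709 identifiers. Among 9 motifs searched in RefSeq promoters, the interferon and heat shock elements were added after the data were seen. The rule took the 12 largest rises and falls among called protein-coding genes (mean log2 CPM 3 or more, 5 of 5 pairs moving alike), the 3 largest of each direction per list on the same conditions, every member of lists of up to 12 genes, the 5 largest differences from the step with IL-2 and the 5 largest genes of each turn between steps, and genes the study names. Some genes that the rule takes are not reported here. Unique windows are the share of a gene's 50-base transcript windows (GENCODE M21) in no other gene. As alternatives, RLE replaced TMM, DESeq2 1.42.0 replaced edgeR, the filter was loosened to any gene with a count or tightened to 10 counts in every library, and further fits used only the groups compared, dropped the block, left out each replicate or asked for an absolute log2 difference of 1 or more. On simulated counts of 13819 genes with a step in 200, edgeR called 33 of 65 set to an absolute log2 change of 0.5. It called 59 of 64 set to 1, 69 of 71 set to 2 and 6 of 13619 unchanged genes. The share of genes with a step was far below the 66.6% called between pH 6.6 and pH 7 without IL-2. These rates therefore do not carry over to that comparison.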

Additional observations from a re-analysis of the deposited data

Results flagged for a closer look

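Of 86 groups of 5 libraries examined, 4 held a library far from the other 4 by Dixon's test (critical value 0.71), where chance marks about 1 group in 20. All 4 were n1 libraries. In the pH 6.6 library n1, Il7r was at 18.6 CPM and Cxcr3 at 22.2 CPM, each the highest of its group. Itgae was highest in n1 of both groups, at 581 CPM at pH 7 and 259 CPM at pH 6.6. 

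The step from pH 7 to pH 6.6 differed between cells without and with IL-2 in 8433 genes (61.0% of those tested) by the test of the difference itself. Among the 43 genes described library by library it differed in 32, but these 43 were in part picked for their changes. Given as the log2 step without IL-2 minus that with IL-2, the signed difference was positive, a greater rise or a lesser fall without IL-2 or a rise against a fall, for the cell cycle genes Cenpa (1.44), Kif11 (3.36), Top2a (3.31), Brca1 (3.36), Rrm2 (4.34), Cdc20 (2.21) and Cdkn1a (0.719). The same held for the transcription factors Nr4a2 (1.44), Fosl2 (0.726), Bhlhe40 (0.683) and Myc (1.95), for the phosphatase gene Dusp1 (0.732), and for the chaperones Dnajb6 (0.358) and Hsp90ab1 (1.78). Gzma (1.97), Gzmb (3.25), Il2ra (1.20), Isg15 (2.08), Insig1 (2.31) and Rps2 (0.712) were also positive. The difference was negative for Slfn5 (-2.34), Il7r (-4.32), Cxcr3 (-1.70), Gpr132 (-1.41), Itgae (-1.07), Jak1 (-1.14), Bend4 (-1.16), Atp2a1 (-0.855), Spo11 (-2.85), Ighm (-1.81), Bcl2l11 (-1.27) and Tsc2 (-0.379). For Gpr132, Bend4, Atp2a1 and Bcl2l11, which rose in both conditions, it means a smaller rise without IL-2.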

How the results depend on the processing

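The 9205 genes that passed between pH 7 and pH 6.6 without IL-2 were 2711 when an absolute log2 difference of 1 or more was also asked for. On the same condition the 8433 genes that differed from the step with IL-2 became 3745, and the 6111 that differed from the step between pH 7.4 and pH 7 became 2385. The other alternatives kept these counts within 1.5 times. Without the replicate block they were 8621, 7803 and 5132, and with 1 replicate left out they ran from 8340 to 8987, from 7555 to 8180 and from 4562 to 5752. Between TMM and RLE normalization the overall median log2 fold change moved from -0.04 to 0.01, and the share of higher genes among those called from 46.4% to 50.6%. The median of the list of MAP kinase phosphatases, Sprouty and RGS genes turned from 0.11 to -0.12 under the stricter filter, which tests fewer genes. Of 47 list medians 20 moved under at least 1 alternative by more than the SD of the 5 pairs, and 7 changed sign, each between -0.095 and 0.11 as reported. Of the named genes 2 changed sign, Trac and Nprl2, neither of them called, while 19 lost and 8 gained the call under at least 1. Without the replicate block the calls of Gzmb, Gzme, Dusp5, Jak1, Egr1, Cd74, Ighm and Zbtb7b were lost, and it changed no other call among named genes. Counting depth was similar in both groups. In simulated data a log2 change of 0.5 was called in 33 of 65 genes. A far smaller share of genes changed there than the 9205 called here, and the Benjamini-Hochberg cutoff depends on that share. The simulation therefore does not measure how many changes were missed here, and small changes can still be missed.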

Other observations

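Further lists are given by their counts, to be read beside the 30.9% higher and 35.7% lower over all genes tested. Among 23 cytosolic aminoacyl-tRNA synthetases 10 were higher and 5 lower (median log2 fold change 0.05), and among 21 amino acid transporters 5 were higher and 8 lower (median -0.20, or -0.084 under the looser filter). With IL-2 19 of the 23 synthetases were lower, against 40.0% over all genes. For 26 other cytokine receptors, 9 were higher, with Il12rb2, a chain of the IL-12 receptor (0.92), and Il18rap, of the IL-18 receptor (0.87), and 9 lower, with Il27ra (-0.75). Of 22 targets of HIF and its prolyl hydroxylases 11 were higher and 2 lower, with Mxi1, an antagonist of MYC, at 1.62 and Anxa2, annexin A2, at 1.21.

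Among 8 GIMAP genes, GTPases of lymphocyte survival, 3 were higher, with Gimap7 (0.71), and 1 was lower, Gimap8 (-0.99). With IL-2, 6 of the 8 were higher (32.5% over all genes tested). Of 8 genes of the Txnip and arrestin-domain list 2 were higher, with the zinc finger factor gene Klf10 (1.55), and 1 was lower, Arrdc1 (-0.21), a call lost with RLE normalization, with DESeq2, under the looser filter and without replicate 2 or 5 (-0.21 to -0.15). With RLE normalization and with DESeq2 Txnip, Arrdc2 and Arrdc3 passed as higher (0.20 to 0.42). Of 3 CD4 T cell markers tested 2 were lower, and their summed level was 25 to 39 CPM at pH 7 and 17.5 to 31.5 CPM at pH 6.6. Of 9 red cell and platelet markers, Itga2b alone could be tested, and it was at 6.72 to 9.34 CPM at pH 7 and 12.9 to 23.6 CPM at pH 6.6.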
